A study of Ovis aries and Capra hircus and Bos taurus with 26 samples.

Results

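Acetylation of lysine 27 on histone H3 (H3K27ac) marks active promoters and active enhancers, whereas trimethylation of lysine 4 (H3K4me3) is concentrated around active transcription start sites. Regions that carry both marks are commonly read as promoters, and H3K27ac without H3K4me3 is commonly read as an enhancer mark. In liver, the tissue that produces most plasma proteins and controls sugar, lipid and bile metabolism, both marks have been used to map the regulatory elements of hepatocytes and of the other cells of the organ.

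Both marks were measured by ChIP-seq (chromatin immunoprecipitation followed by sequencing) in frozen whole liver of 3 adult, healthy, untreated Texel sheep of 2 to 3 years, named A, B and C. The comparison was of the 3 H3K27ac lists with the 3 H3K4me3 lists, which makes 6 of the 17 peak lists of a series of 26 samples that also covers cattle and goats, and its members were chosen by species and mark in the sample labels. Each liver gave 1 library per mark, so the 2 marks of an animal share their tissue, and whole liver mixes cell types, so that more cells with a mark and more mark per cell cannot be told apart. A peak here is 1 interval of a list, and a summit is a local maximum that the peak caller placed within it. Only the 26 autosomes of the Rambouillet assembly were compared. The identity of the tissue was not checked with marker genes, because no gene annotation of that assembly was used here.

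H3K27ac had more peaks than H3K4me3, and they were narrower. The autosomes held 38317 H3K27ac peaks in animal A, 35693 in B and 39846 in C. They held 26996 H3K4me3 peaks in animal A, 29469 in B and 28825 in C. Every H3K27ac library lay above every H3K4me3 library, with 1.33 times as many peaks on average (log2 difference 0.42). With 3 libraries against 3 the two-sided exact permutation test cannot go below p = 0.1, which is the value it gave, and adjusted over the 6 summary measures it was 0.12. The excess was smaller among stronger peaks: with a −log10 q of 5 or more the log2 difference was 0.11 and the groups overlapped (exact permutation p = 0.2).

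The larger number of H3K27ac peaks did not come with more covered sequence. H3K27ac peaks covered 23.01, 19.8 and 23.7 Mb in animals A, B and C, and H3K4me3 peaks covered 21.7, 23.7 and 25.2 Mb, so the groups overlapped. The median H3K27ac peak was 489, 458 and 483 bp wide in A, B and C. The median H3K4me3 peak was 716.5, 697 and 769 bp wide. No H3K27ac library reached the narrowest H3K4me3 library (log2 difference −0.61, exact permutation p = 0.1, adjusted over 6 measures 0.12).

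Wide peaks were a larger share of the H3K4me3 lists. As a ratio of H3K27ac to H3K4me3, width was 0.655 at the median, 0.644 at the 75th percentile and 0.712 at the 90th percentile. Peaks of more than 1 kb made up 13.6%, 9.93% and 13.7% of the H3K27ac lists and 31.5%, 31.2% and 36.0% of the H3K4me3 lists. Peaks of more than 2 kb numbered 106, 45 and 116 for H3K27ac and 364, 531 and 795 for H3K4me3. Among the narrowest peaks the marks were closer, with a 10th percentile of 262 ± 7.2 bp (SD, n = 3) for H3K27ac and 288 ± 17 bp (SD, n = 3) for H3K4me3. The median fold enrichment that the authors' caller gave was 3.89 ± 0.022 for H3K27ac and 6.84 ± 0.097 for H3K4me3 (SD, n = 3). The part of antibody and of enrichment strength in these differences was not tested.

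Summits gave one order over all peaks and the other order once width was held equal. Over all peaks, H3K27ac had 1.31, 1.27 and 1.33 summits per peak in A, B and C, and H3K4me3 had 1.48, 1.43 and 1.41. All H3K27ac libraries were below all H3K4me3 libraries (difference −0.14, exact permutation p = 0.1, adjusted over 6 measures 0.12). With peaks within 500 bp merged, the difference was −0.075 and the groups overlapped (exact permutation p = 0.2). Peaks with more than 1 summit made up 24.04% ± 1.9 of the H3K27ac lists and 32.9% ± 1.9 of the H3K4me3 lists (SD, n = 3). The most summits in any peak were 6 in each H3K27ac library, and 7, 7 and 8 in the H3K4me3 libraries.

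At equal width, H3K27ac peaks held more summits than H3K4me3 peaks. Averaged over 5 width classes from 250 bp to below 2000 bp, H3K27ac had 1.81 ± 0.021 summits per peak and H3K4me3 1.57 ± 0.089 (SD, n = 3), a difference of 0.24 with no overlap of the groups (exact permutation p = 0.1, adjusted over 6 measures 0.12). The difference was near nil in peaks from 250 to below 500 bp, at 1.015 ± 0.0030 against 1.007 ± 0.0033. It was widest in the upper classes, at 2.18 ± 0.030 against 1.80 ± 0.14 in peaks from 1000 to below 1500 bp and 3.02 ± 0.041 against 2.58 ± 0.20 in peaks from 1500 to below 2000 bp. Over peaks of all widths, adjacent summits of a peak lay closer together for H3K27ac, with a median spacing of 419, 394 and 406 bp against 441, 447 and 489 bp. This spacing was not taken at equal width. With a −log10 q of 5 or more the difference at equal width was 0.11, in the same direction and again without overlap of the groups.

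**Figure D1:**
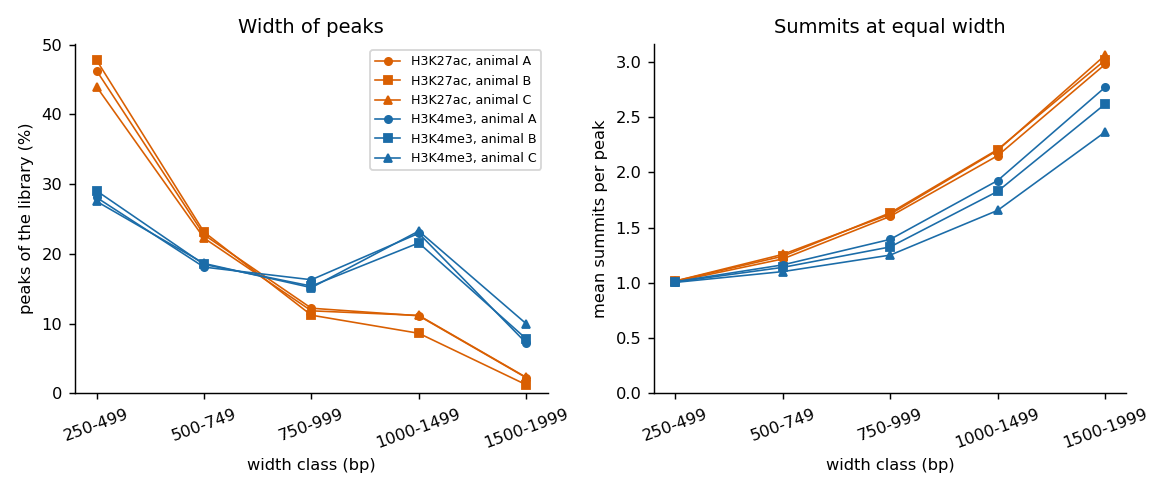
Left, percentage of the peaks of each library (vertical axis) in each width class in bp (horizontal axis); right, mean number of summits per peak in the same classes. Each line is 1 library, orange for H3K27ac and blue for H3K4me3. H3K27ac leads in the 2 narrow classes on the left, and on the right its 3 lines lie above those of H3K4me3 from 500 bp upward.

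The marks were next compared by position. A distance was taken from each peak to the nearest peak of the other mark in the same animal, edge to edge. H3K4me3 peaks overlapped H3K27ac more often than the reverse: 69.0%, 64.9% and 69.3% of H3K4me3 peaks in A, B and C overlapped an H3K27ac peak, and 52.6%, 59.4% and 54.7% of H3K27ac peaks overlapped an H3K4me3 peak. The groups did not overlap (difference −12.2 percentage points, exact permutation p = 0.1, adjusted over 6 measures 0.12). Both shares rest on the same pairs of overlapping peaks within an animal, though a peak can meet several of the other mark. They are taken over different numbers of peaks, so their order is not independent of the peak numbers above. The order depended on the choice of peaks. With recurrent peaks, those covered by 50% or more in another animal, the difference was −4.42 points and with peaks within 500 bp merged −13.3, both without overlap of the groups. With the 20000 strongest peaks of each library the difference was 4.14 points in the other direction, with a −log10 q of 5 or more it was −0.21, and where 50% of a peak had to be covered it was −0.98.

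Overlap rose with peak strength for both marks. Each library was cut by −log10 q into 4 groups of equal size. In the weakest group, 22.99% to 30.03% of H3K27ac peaks and 29.5% to 35.9% of H3K4me3 peaks overlapped the other mark. In the next to strongest group the values were 58.5% to 68.0% and 83.9% to 88.0%. In the strongest group they were 94.3% to 96.4% and 99.3% to 99.6%. The libraries of the 2 marks overlapped only in the weakest group.

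Peaks that met the other mark were wider and more enriched than those that did not. Overlapping H3K27ac peaks had a median width of 652, 575 and 651 bp, and those without overlap 385, 356 and 370 bp. Overlapping H3K4me3 peaks had a median width of 917, 935 and 985 bp, and those without overlap 393, 400 and 435 bp. The mean of these medians, H3K27ac minus H3K4me3, differed by −319.7 bp where the marks overlapped and by −39 bp where they did not. The median fold enrichment was 4.64 ± 0.050 with overlap and 3.40 ± 0.026 without for H3K27ac, and 8.17 ± 0.20 with overlap and 4.95 ± 0.065 without for H3K4me3 (SD, n = 3).

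The spread of distances depended on whether shares were taken of all peaks or of those without overlap. Of whole lists, peaks 5 to 50 kb from the other mark made up 26.3%, 21.9% and 25.1% for H3K27ac and 13.6%, 15.4% and 13.4% for H3K4me3. At 50 to 100 kb the shares were 6.26%, 4.21% and 4.98% against 3.42%, 3.78% and 3.40%, also without overlap of the groups. Below 1 kb, from 1 to 5 kb and beyond 100 kb the whole-list shares overlapped. Of the peaks without overlap, H3K27ac had the larger share at 5 to 50 kb, at 54.9% ± 0.81 against 43.8% ± 0.14 (SD, n = 3). It had the smaller share below 1 kb, at 13.4% ± 2.5 against 18.7% ± 0.68, from 1 to 5 kb, at 9.36% ± 1.1 against 11.9% ± 0.49, and beyond 100 kb, at 10.8% ± 1.5 against 14.6% ± 0.16, each without overlap of the groups. At 50 to 100 kb these shares overlapped. The median distance of non-overlapping peaks was 19432, 14953 and 15596 bp for H3K27ac and 15013, 15094 and 14352.5 bp for H3K4me3. These overlapped (log2 difference 0.16, exact permutation p = 0.3), and the sign changed under 3 other settings. H3K27ac of animal A was the farthest value, and without it the log2 difference was 0.044.

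**Figure D2:**
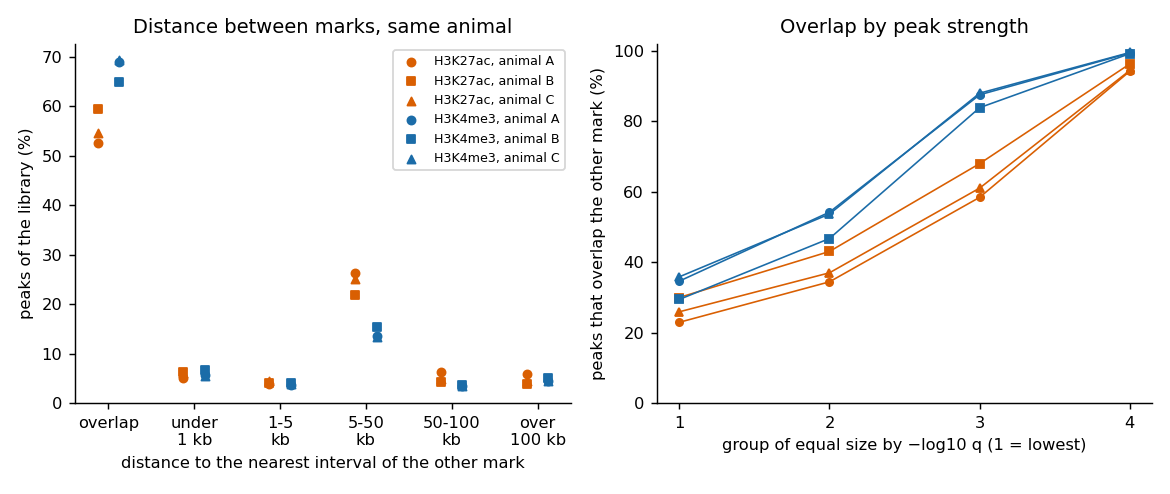
Left, percentage of the peaks of each library (vertical axis) by distance to the nearest peak of the other mark in the same animal (horizontal axis); right, percentage that overlap the other mark in 4 equal groups of the library from the lowest −log10 q to the highest. Points are single libraries. On the left the marks separate at overlap, at 5 to 50 kb and at 50 to 100 kb, and on the right all libraries rise from 36% or less to 94% or more.

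H3K27ac had more peaks per Mb than H3K4me3 on every autosome, in every library, but the excess was uneven. H3K27ac density ran from 8.59 peaks per Mb on chromosome 10 to 30.3 on chromosome 11, and H3K4me3 density from 6.60 to 24.7 on the same chromosomes. Chromosome 24 was the next densest for both, at 25.2 and 21.6 peaks per Mb. Each library was then centred on its own autosomal total, and the marks were compared with limma (a linear model with moderated errors) and Benjamini-Hochberg adjustment over the 26 chromosomes. The number differed from the autosome-wide ratio on 20 of 26 chromosomes (76.9%), with relatively more H3K27ac on 12 and relatively less on 8.

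Chromosomes 14 and 24 had the least H3K27ac relative to H3K4me3. Chromosome 14 carried 1.09 times as many H3K27ac as H3K4me3 peaks (centred log2 difference −0.29 ± 0.024 SE, limma adjusted p = 3.79e-07), and chromosome 24 had a ratio of 1.16 (−0.20 ± 0.025 SE, adjusted p = 1.76e-05). Chromosomes 25 and 16 had the most, with ratios of 1.59 (0.25 ± 0.022 SE, adjusted p = 3.79e-07) and 1.501 (0.17 ± 0.024 SE, adjusted p = 2.98e-05). Without centring, the log2 difference was above 0 on all 8 lower chromosomes and passed the test on all of them but chromosome 14 (0.12, limma adjusted p = 0.060), so the lower calls are relative to the autosomes as a whole.

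Chromosomes known for particular gene content fell on both sides. Chromosome 11, which like 14 and 24 is rich in genes, was lower (−0.12 ± 0.026 SE, limma adjusted p = 0.00091), and so was chromosome 20, which carries the major histocompatibility complex (−0.17 ± 0.022 SE, adjusted p = 2.05e-05). Chromosome 6, which carries the albumin gene family, was higher (0.10 ± 0.021 SE), and chromosome 15, with clusters of olfactory receptor genes, was higher as well (0.084 ± 0.021 SE). The call on chromosome 6 was lost with a −log10 q of 5 or more (0.052) and that on chromosome 15 with the 20000 strongest peaks (0.046). Chromosomes 10 and 23, which are poor in genes, did not pass the test, at −0.040 ± 0.026 and −0.034 ± 0.022 (SE). Chromosome 10 passed with a −log10 q of 5 or more (−0.074), the 20000 strongest peaks (−0.11), recurrent peaks (−0.097) and without H3K27ac of animal C (−0.072), and chromosome 23 passed without H3K4me3 of animal A (−0.055).

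**Figure D3:**
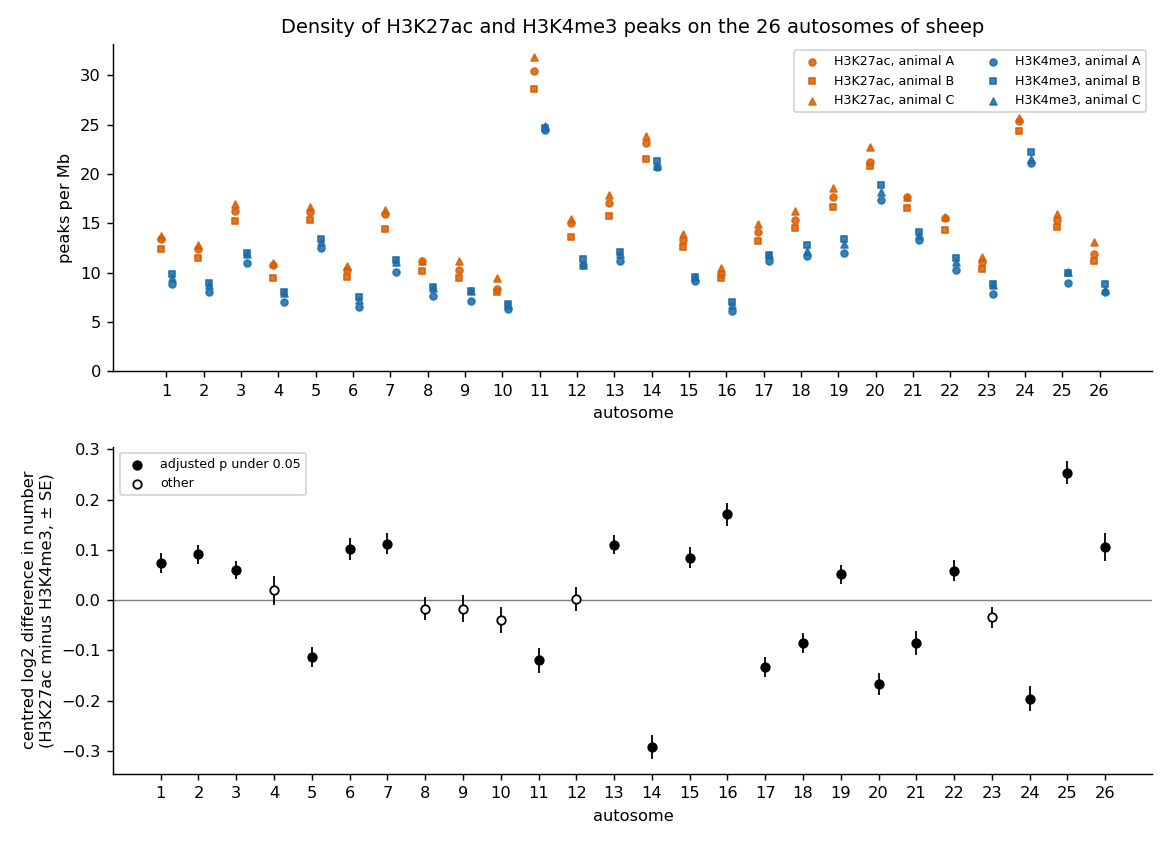
Top, peaks per Mb on each autosome, each point 1 library, orange for H3K27ac and blue for H3K4me3; bottom, centred log2 difference in peak number, H3K27ac minus H3K4me3, with its standard error, filled where the limma adjusted p was under 0.05. H3K27ac lies above H3K4me3 on all 26 autosomes, while the centred difference runs from −0.29 on chromosome 14 to 0.25 on chromosome 25.

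Width and summits kept their order between the marks on every chromosome. On all 26, every H3K27ac library had a lower median width and fewer summits per peak than every H3K4me3 library. Relative to the autosomes as a whole, the width difference was called on 8 chromosomes (30.8%). H3K27ac was relatively narrowest on chromosome 7 (−0.071 ± 0.013 SE on the log2 scale, limma adjusted p = 0.0019) and chromosome 25 (−0.037 ± 0.012 SE, adjusted p = 0.033). It was relatively widest on chromosome 23 (0.072 ± 0.013 SE, adjusted p = 0.0019) and chromosome 20 (0.059 ± 0.015 SE, adjusted p = 0.014). H3K27ac width (mean of medians) was 473 and 479 bp on chromosomes 7 and 25, and 460 and 468 bp on 23 and 20. Its median over the 26 chromosomes was 471 bp. On this scale H3K27ac was above that median on 7 and 25 and below it on 23 and 20. H3K4me3 width was 782, 757, 625 and 663 bp in the same order, against a median of 718 bp. Chromosome 23 had the narrowest H3K4me3 peaks of all autosomes. The call on chromosome 25 was lost under 7 alternatives, with −0.0078 for the 20000 strongest peaks and −0.039 to −0.032 in the other 6. The call that H3K27ac was relatively wider was lost on chromosome 23 with merged (0.041) and recurrent peaks (0.038), and on chromosome 20 without H3K27ac of animal A (0.054). The count for width fell to 2 without H3K27ac of animal A, 3 without H3K27ac of B, 4 without H3K4me3 of C, and 4 with the animal as a block.

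The summit difference was called on 2 chromosomes (7.69%), 7 and 20. H3K27ac had relatively fewer summits on chromosome 7 (−0.040 ± 0.010 SE, limma adjusted p = 0.046) and relatively more on chromosome 20 (0.031 ± 0.0068 SE, adjusted p = 0.046). The other extremes, chromosome 6 at −0.034 and chromosome 14 at 0.036, did not pass. With the animal as a block, chromosome 20 no longer passed (limma adjusted p = 0.077), while chromosomes 6 (adjusted p = 0.049) and 14 (adjusted p = 0.047) did. Chromosome 6 also passed with the 20000 strongest peaks (−0.071), and chromosome 14 with a −log10 q of 5 or more (0.035). Leaving out single libraries gave 0 or 1 called chromosomes, with 2 to 6 at an unadjusted p under 0.05 in the limma fits. The differences themselves moved less, from −0.047 to −0.031 on chromosome 7 and from 0.030 to 0.032 on chromosome 20. Without centring, H3K27ac had fewer summits on chromosomes 14 (−0.10) and 20 (−0.11) too.

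Distance was called on 14 of 26 chromosomes (53.8%), 5 with relatively longer and 9 with relatively shorter distances from H3K27ac to H3K4me3 than in the reverse direction. Overlapping peaks entered these fits at 0 bp, unlike the median distance above, so the measure also carries the share that overlaps. Chromosomes 14 (−0.55 ± 0.061 SE on the log2 scale, limma adjusted p = 0.00011) and 24 (−0.36 ± 0.046 SE, adjusted p = 0.00022) were again lowest, and chromosomes 25 (0.58 ± 0.058 SE, adjusted p = 8.44e-05) and 7 (0.27 ± 0.042 SE, adjusted p = 0.00081) highest. With the 20000 strongest peaks the value on chromosome 7 was 0.11 and no longer passed. Without centring, 20 chromosomes had longer and 0 shorter distances, with −0.019 on chromosome 14 and 0.17 on chromosome 24, so the shorter calls are relative to the autosomes as a whole. On chromosomes 24 and 14, 69.1% ± 3.7 and 68.4% ± 3.0 of H3K27ac peaks overlapped H3K4me3, and on chromosomes 16 and 25 46.1% ± 4.0 and 48.8% ± 2.4 did (SD, n = 3). Distance and number share the same peaks, so the 2 measures are not independent.

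At 1 Mb the 2 marks kept a close overall relation with many local departures. Of 2641 bins, 201 held no H3K27ac peak in any animal, 169 held no H3K4me3 peak and 89 held neither. Across the 1730 bins with a mean of 5 or more peaks, the number of peaks of the 2 marks in 1 animal had a Pearson correlation of 0.89, 0.92 and 0.91 in A, B and C. Between animals within a mark it was 0.973 to 0.987. Such bins share gene and base content and the 2 marks share a liver, so these values are a description only.

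The balance between the marks differed in many bins. The limma fit called 812 of the 1730 bins (46.9%), of which 428 had relatively more H3K27ac and 384 relatively less. The higher bins had a median of 21 H3K27ac and 10 H3K4me3 peaks, and the lower bins 14 and 15.7. Differences of more than 1 on the log2 scale were reached by 71 higher and 56 lower bins. Without centring, 945 bins had more H3K27ac and 73 more H3K4me3, and with a pseudocount of 2 the split was 381 to 426. Centring sets the balance of the 2 directions. Of the called bins, 67 higher and 36 lower ones had a mean under 5 in 1 mark and passed the filter through the other, as 156 of all tested bins did.

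The 2 kinds of bin differed in how their peaks met the other mark and in where they lay. These bins were chosen by peak number, which bears on overlap, so the values are given without a test. In the higher bins, 39.6% ± 3.9 of H3K27ac and 75.3% ± 3.1 of H3K4me3 peaks overlapped the other mark, and in the lower bins 74.0% ± 2.8 and 63.6% ± 2.0 did (SD, n = 3). Lower bins were found more often near chromosome ends, with 21.4% of them among the last 5 bins at either end against 3.04% of the higher bins and 10.6% of all tested bins. Among 297 lower bins whose next bin was also tested, 37.0% were followed by another lower bin, while 22.2% of tested bins were lower. They include the run of 17 bins on chromosome 14 described below. For higher bins, 328 with a tested next bin, the shares were 29.0% and 24.7%.

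**Figure D4:**
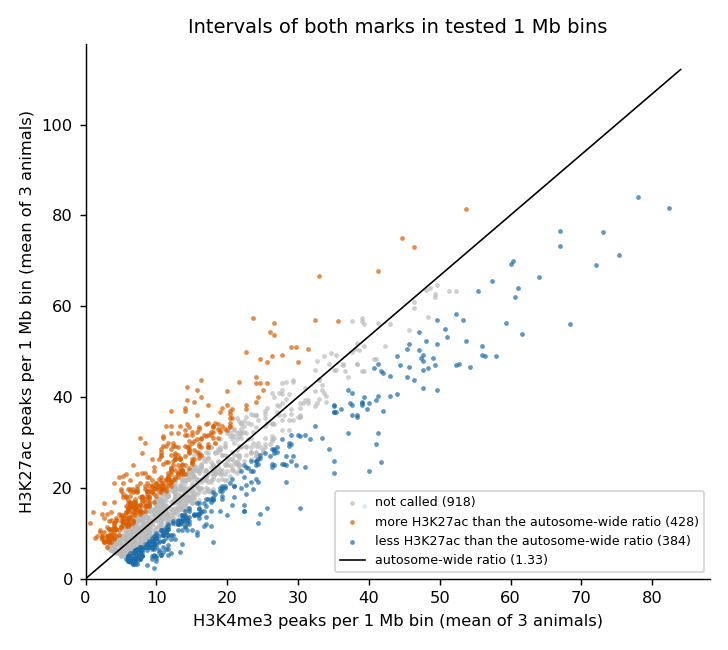
Mean number of H3K27ac peaks (vertical axis) against H3K4me3 peaks (horizontal axis) per 1 Mb bin over 3 animals, each point 1 of the 1730 tested bins. Orange bins (428) have relatively more and blue bins (384) relatively less H3K27ac than the line of the autosome-wide ratio of 1.33, by a limma adjusted p under 0.05.

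One stretch of chromosome 14 had fewer H3K27ac than H3K4me3 peaks. From 54000001 to 71000000, 17 bins in a row had relatively less H3K27ac, the sole run of 5 or more bins in either direction. The stretch held 576, 527 and 563 H3K27ac peaks in A, B and C and 630, 610 and 611 H3K4me3 peaks, a ratio of 0.90 with H3K27ac lower in every library. The rest of the chromosome had a ratio of 1.23. The stretch was chosen by relative peak number, which bears on overlap, so these values are a description only. H3K27ac overlapped H3K4me3 in 80.7%, 84.4% and 79.9% of peaks within the stretch and in 59.5%, 65.4% and 59.7% outside it. H3K4me3 overlap was much the same inside and outside, at 67.5% ± 1.7 and 69.5% ± 2.7 (SD, n = 3).

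The bins with the largest relative excess of H3K27ac held almost no H3K4me3. On chromosome 8, from 71000001 to 72000000, there were 11, 13 and 13 H3K27ac peaks in A, B and C and 1, 1 and 0 H3K4me3 peaks (centred log2 difference 3.20 ± 0.40 SE, and 2.03 with a pseudocount of 2). On chromosome 2, from 57000001 to 58000000, there were 15, 14 and 15 against 1 in each animal (2.92 ± 0.24 SE, and 2.06 with a pseudocount of 2). All 5 bins with the largest excess passed the filter through H3K27ac alone, so no p is given for them. In the chromosome 2 bin, 1 H3K27ac peak per animal overlapped the H3K4me3 peak and all the others stood apart from it.

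Bins on chromosomes 13, 4 and 20 came next. On chromosome 13, from 52000001 to 53000000, there were 19, 15 and 16 against 2, 2 and 4 peaks. On chromosome 4, from 95000001 to 96000000, there were 9, 8 and 10 against 1, 1 and 2. On chromosome 20, from 37000001 to 38000000, there were 15, 14 and 14 against 2, 3 and 2. Their centred log2 differences were 2.07, 1.996 and 1.99, and with a pseudocount of 2 they were 1.61, 1.32 and 1.51. Separation of the groups was part of the rule that chose these bins.

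The bins with the largest relative deficit of H3K27ac were of 2 kinds. Some held few H3K27ac peaks, as on chromosome 3 from 84000001 to 85000000, with 2, 3 and 2 H3K27ac against 10, 8 and 11 H3K4me3 peaks (−2.27 ± 0.26 SE), of which 1 H3K4me3 peak per animal overlapped H3K27ac. The bin on chromosome 20 from 33000001 to 34000000 was instead rich in H3K4me3, with 43, 37 and 38 peaks against 17, 18 and 13 H3K27ac peaks (−1.70 ± 0.14 SE, limma adjusted p = 1.13e-06). There, all H3K27ac peaks overlapped H3K4me3 in each animal.

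The other lower bins lay on chromosomes 23, 8 and 3. On chromosome 23, from 44000001 to 45000000, there were 3 H3K27ac peaks in each animal against 10, 8 and 8. On chromosome 8, from 95000001 to 96000000, there were 3, 2 and 7 against 10, 11 and 9. On chromosome 3, from 99000001 to 100000000, there were 9, 9 and 6 against 18, 17 and 19. Their centred log2 differences were −1.80, −1.79 and −1.56. The chromosome 23 and chromosome 8 bins, like the first chromosome 3 bin, had a mean under 5 for H3K27ac and passed the filter through H3K4me3 alone, so no p is given for them.

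**Figure D5:**
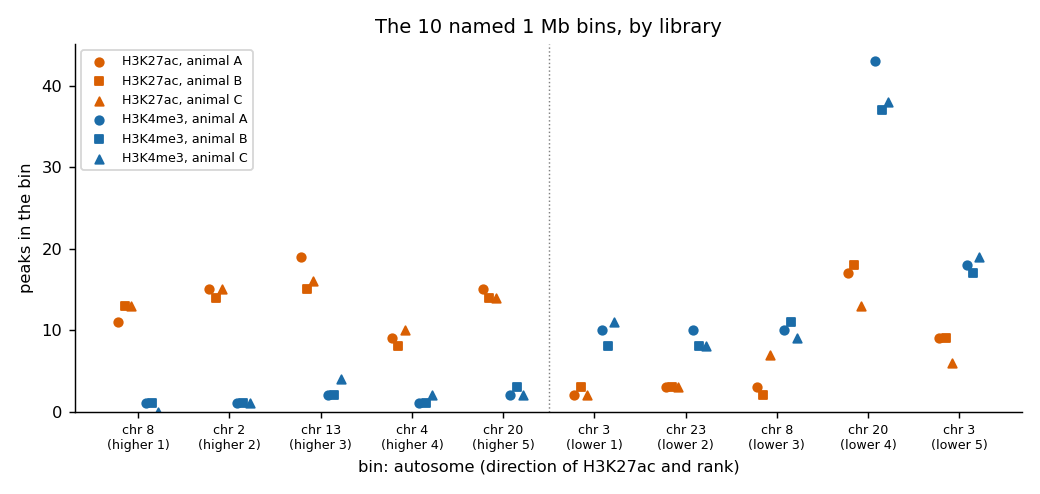
Number of peaks (vertical axis) in the 5 bins with the largest relative excess and the 5 with the largest relative deficit of H3K27ac (horizontal axis, left and right of the dotted line), each point 1 library. The bins were chosen among those without overlap of the groups. The H3K4me3-rich bin of chromosome 20 stands highest at 37 to 43 peaks.

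The bins with most peaks were largely shared between the marks. On chromosome 11, from 36000001 to 37000000, there were 90, 81 and 81 H3K27ac and 78, 76 and 80 H3K4me3 peaks. On chromosome 20, from 29000001 to 30000000, there were 82, 81 and 82 against 82, 81 and 84. Both ranked among the top 3 for each mark. The third H3K27ac bin, on chromosome 19 from 52000001 to 53000000, had 80, 79 and 85 against 54, 54 and 53, and the third H3K4me3 bin, on chromosome 14 from 56000001 to 57000000, had 71, 69 and 74 against 79, 73 and 74.

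Width and summits separated few bins once each library was centred. Width was called in 92 of 1765 bins (5.21%) and summits in 38 (2.15%), among bins with 3 or more peaks in each library. Both counts fell when any H3K27ac library was left out. Without H3K27ac of animal A, B or C, no bin passed for width, with 355, 361 and 375 at an unadjusted p under 0.05 in the limma fits, and 2, 0 and 1 passed for summits, with 336, 326 and 339. Without an H3K4me3 library, 51, 50 and 45 bins passed for width and 49, 8 and 9 for summits. With the animal as a block, 55 passed for width and 0 for summits (398 at an unadjusted p under 0.05).

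Distance separated more bins, 620 of 1765 (35.1%), with 295 relatively longer and 325 relatively shorter from H3K27ac. Overlapping peaks again entered at 0 bp. Without H3K4me3 of animal C the count was 401. The extreme bins were named after their values were seen. On chromosome 3, from 138000001 to 139000000, all 3, 4 and 5 H3K4me3 peaks overlapped H3K27ac, while the 21, 17 and 25 H3K27ac peaks had mean distances on the log scale of 54405, 35013 and 24225 bp (centred log2 difference 4.68 ± 0.46 SE, limma adjusted p = 0.00054). The chromosome 23 bin named above was the opposite extreme (−3.89 ± 0.63 SE, adjusted p = 0.0027), with H3K27ac at 0, 0 and 2782 bp from H3K4me3 and H3K4me3 at 10900, 12262 and 25162 bp from H3K27ac. Its size depended on the pseudocount of 1000 bp, with −6.13 at 100 bp, and was −2.66 against the nearest peak of any animal. The chromosome 3 bin was at 6.87 with 100 bp and 2.55 with the 20000 strongest peaks.

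Single regions seen in all 3 animals showed the same range. Peaks found in at least 2 animals, by an overlap of 50%, were merged within a mark, which gave 33949 H3K27ac and 26736 H3K4me3 regions, of which 24094 and 22611 were present in all 3 animals. Of these, 18070 of the H3K27ac regions and 19157 of the H3K4me3 regions (84.7%) overlapped the other mark in any animal. Regions more than 100 kb from any peak of the other mark made up 1.79% and 2.08%.

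The regions with most summits carried both marks. For H3K27ac, chr20:8985203-8988232 had 5, 7 and 6 summits in A, B and C, chr8:88737058-88739792 had 6, 6 and 5, and chr11:19025491-19028249 had 6, 5 and 6. They were among 5 regions tied at a lowest value of 5. For H3K4me3, chr2:151432681-151436028 had 7, 6 and 6 summits, chr23:54046916-54050247 had 6, 6 and 7, and chr20:51646109-51649000 had 6 in each animal. All 6 regions overlapped the other mark.

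The regions farthest from the other mark held few summits, as most regions did. Of the regions present in all 3 animals, 19142 of 24094 for H3K27ac and 15686 of 22611 for H3K4me3 had a lowest value of 1 summit. The H3K27ac region farthest from H3K4me3, chr6:12199325-12199924, was 600 bp long and 1152824 bp from the nearest H3K4me3 peak of any animal, with fold enrichments of 4.68, 4.97 and 3.92. It was followed by chr25:23514598-23515288 and chr10:47018790-47019199. The H3K4me3 region farthest from H3K27ac, chr17:44601268-44601877, was 610 bp long and 1926095 bp from H3K27ac, with fold enrichments of 5.22, 11.1 and 11.4. It was followed by chr14:32685070-32685354 and chr8:46887200-46887673. Each of these held 1 summit per animal, apart from 2 in animal A for the chromosome 6 region and 2 in animal B for the chromosome 25 region.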

How the data were processed

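ChIP-seq of H3K27ac (Abcam ab4729) and H3K4me3 (Abcam ab85850) was done on liver of 3 sheep. Per the labels and the methods, the authors used Trim Galore 0.4.0 for trimming, aligned reads with BWA-MEM 0.7.17 to the species' assembly, removed duplicates with Picard 2.25.0, subsampled the reads and called peaks with MACS2 2.1.1. For sheep the methods name Oar_rambouillet_v1.0, and the RefSeq sequence names in the lists are those of sheep, whereas the processing notes of the sheep samples name ARS-UCD1.2, a cattle build. Coordinates here are those of the lists. The methods describe the input libraries as controls, but do not state whether the caller used them as background. The deposited lists give a fold enrichment, which is a ratio to background, and −log10 p and −log10 q from the authors' caller. The lowest −log10 q of the 6 lists was 2.0. The deposited positions and summit offsets, of no other unit, were the main measurement. The methods state a common depth after subsampling, which was not checked here because the lists count no reads, and precision rests on 3 animals per mark.

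List rows that shared a position were joined into 1 peak. Coordinates are 1-based. The length of a chromosome was the last peak end over the 6 lists, and the last partial bin was left out. Single values were compared by two-sided exact permutation of the 6 libraries. Bins and chromosomes were compared with limma 3.58.1 in R 4.3.3 on log2(number + 0.5), log2 width, summits and log2(distance + 1000 bp), each library being centred on its autosomal value, at a Benjamini-Hochberg adjusted p under 0.05. The distance of bins and chromosomes was taken over all peaks, overlapping ones included, whereas the single value used peaks without overlap. Fold changes from log2(value + pseudocount) understate differences of low values. Number was tested in bins with a mean of 5 or more peaks, and the other measures in bins with 3 or more in each library. The code used Python 3.11.15, numpy 2.4.6, pandas 2.3.3 and matplotlib 3.10.9, and was checked against bedtools 2.31.1 and on simulated data.

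The titles give the same animal letter to both marks of a liver. Deviations of same-lettered libraries across 1730 bins correlated at 0.11, −0.00082 and 0.11, and those of different letters at −0.15 to 0.063. A fit with the animal as a block was an alternative. Named bins were the 5 highest and 5 lowest called bins without overlap of groups and the 3 with most peaks per mark. Named chromosomes were the 2 highest and 2 lowest per measure and a set of 8, and named regions were the 3 with most summits and the 3 farthest from the other mark. The measures, sets and rules were chosen with earlier results of these data known. The 11 lists of cattle and goats and the X chromosome, unplaced scaffolds and mitochondrial sequence were left out of the comparisons.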

Additional observations from a re-analysis of the deposited data

Results flagged for a closer look

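Peaks outside the autosomes were not part of the comparisons, and in all 3 classes of such sequence the mean number per mark was above the 3 that would be the limit of a count of 0. On the X chromosome the marks were alike in number, with a mean of 921 H3K27ac and 906 H3K4me3 peaks and overlapping libraries. On the unplaced scaffolds, H3K4me3 had 1679, 1643 and 1490 peaks in animals A, B and C and H3K27ac 640, 622 and 546, with means of 1604 and 603, the opposite order to the autosomes. The mitochondrial sequence held a mean of 5 H3K27ac and 6.33 H3K4me3 peaks, with 6, 7 and 2 against 7, 7 and 5 in A, B and C, so that H3K27ac of animal C was below that limit.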

How the results depend on the processing

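The log2 difference in number and in width, the difference in summits and that in summits at equal width kept their direction under all alternatives run. With merged peaks the groups overlapped in summits (−0.075). No exact test of a single value could pass 0.05. The share that overlaps reversed to 4.14 points with the 20000 strongest peaks of each library. The distance reversed to −0.079 with a −log10 q of 5 or more, −0.040 with peaks within 500 bp merged and −0.034 with the 20000 strongest. The cause was not tested.

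Called bins for number were 377 of 1329 tested with the 20000 strongest peaks and 523 of 1108 with 2 Mb bins. For width the count was 33 of 1633 with a −log10 q of 5 or more and 47 of 1477 with the strongest peaks. Recurrent peaks gave 275 of 1689, 2 Mb bins 37 of 1116 and the fit without centring 1361 of 1765. For summits the count was 70 of 1633 with a −log10 q of 5 or more. Merged peaks gave 94 of 1719, recurrent peaks 80 of 1689 and 6 or more peaks per library 67 of 1348. With 2 Mb bins 14 of 1116 were called for summits, with bins starting 0.5 Mb later 9 of 1763, and without centring 214 of 1765. For distance the count was 396 of 1477 with the strongest peaks, and without centring the split was 536 to 136. Called chromosomes for width were 26 without centring, and for summits 4 with a −log10 q of 5 or more, 0 with merged peaks, 1 with the strongest, 0 with recurrent peaks and 26 without centring. At an unadjusted p under 0.05, limma gave 7 chromosomes for merged and 5 for recurrent peaks. Without centring, 25 chromosomes passed with more H3K27ac and 0 with fewer peaks, and 20 had longer and 0 shorter distances.

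Leaving out 1 library gave 651 to 758 bins for number, 0 to 51 for width, 0 to 49 for summits and 401 to 521 for distance, and 18 to 21, 2 to 9, 0 to 1 and 11 to 15 chromosomes in the same order. It gave differences of 0.38 to 0.46 for number, −0.64 to −0.57 for width, −0.15 to −0.12 for summits, 0.20 to 0.29 at equal width, −14.1 to −10.7 points for overlap and 0.044 to 0.23 for distance. With the replicate block, called bins were 851 for number, 55 for width, 0 for summits (398 at an unadjusted p under 0.05 in limma) and 642 for distance, and called chromosomes 19, 4, 3 and 12. The exact sign-flip test of the paired differences gave p = 0.25 for 5 single values and 0.5 for distance.

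Of the named bins and chromosomes, 465 values under the alternatives stayed on their side of the threshold, 43 no longer passed, 10 newly passed and 12 reversed. All 12 were without centring: 0.10 for the chromosome 11 bin, 0.17 for distance on chromosome 24, 0.38, 0.30, 0.12, 0.25, 0.38 and 0.22 for number on chromosomes 10, 11, 14, 20, 23 and 24, −0.10 and −0.11 for summits on chromosomes 14 and 20, and −0.39 and −0.38 for width on chromosomes 20 and 23.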
